A study of Caenorhabditis elegans with 6 samples.

Results

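The replicative DNA polymerases and the primase are represented by 7 genes: pola-1, div-1, pri-1 and pri-2 of the polymerase alpha-primase complex, pole-1 and pole-2 of polymerase epsilon, and pold-1 of polymerase delta. They were chosen by gene symbol and role, with earlier results of these data known, and each was read from its brightest probe set over all arrays that carries that symbol alone. All 7 were measured, among 17118 genes in the table. Caenorhabditis elegans, a nematode, was profiled as starved whole larvae of its first stage (L1) in 2 genotypes, wild type and lin-35(n745), on 3 arrays each, described in the labels as biological replicates. Both groups had hatched from bleached embryos and had spent 30 h at 20 °C in buffer lacking food and cholesterol. The labels name no strain background and no rescue of lin-35(n745), and each difference below lies between genotypes within starvation.

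DNA synthesis begins with the polymerase alpha-primase complex, in which primase lays down a short RNA primer and polymerase alpha extends it with DNA. In budding yeast, polymerase epsilon then copies most of the leading strand and polymerase delta most of the lagging strand. LIN-35 is the worm's retinoblastoma (Rb) family protein, a transcriptional repressor that acts with E2F and DP proteins, and n745 is a nonsense allele of it. Genes of DNA replication are among the classical E2F targets in animals, and the blast cells of an L1 larva do not divide until it feeds.

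Of the 7 genes, pola-1, div-1, pri-2 and pole-1 rose in the starved lin-35(n745) larvae, by 3.48-fold to 6.28-fold, and none was lower. The primase subunit gene pri-1 and the polymerase delta gene pold-1 did not pass the threshold, with log2 differences of 0.76 and 0.40, and pole-2 differed by −0.18. A gene is said to rise when its adjusted p is below 0.05 (limma on log2 values, Benjamini-Hochberg over all 22548 probe sets tested). Genes called higher made up 5.71% of all genes measured, against 4 of these 7, and genes called lower made up 6.12%, against 0 of these 7. At an unadjusted p below 0.05, 6 of the 7 were higher and 0 lower, against 2025 higher and 2657 lower among all 17118 genes. The median log2 difference was 1.80 over the 7 genes and −0.04 over all genes. In 6 of the 7, all mutant arrays lay above all wild-type arrays, an arrangement found in 13.1% of all genes. In RNA from whole larvae, a change in the number of cells that express a gene and a change in RNA per cell cannot be told apart.

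Across the series, 5.69% of probe sets were called higher and 5.59% lower, and array medians lay between 5.91 and 6.11. Precision is limited by the number of arrays. Levels of lin-35 differed by 0.06 (SE 0.19, limma adjusted p = 0.894), which is no test of the genotypes, as n745 is a point mutation. The 3' to 5' difference of the actin control, a measure of RNA quality, was 0.53 to 0.78 on wild-type arrays and 2.31, 0.41 and 1.23 on mutant replicates 1 to 3. For the GAPDH control it was 0.01 to 0.13 on wild-type arrays and 0.78, 0.08 and 0.45 on those mutant replicates. For catalase it was 1.45 to 1.62 and 3.73, 1.18 and 1.55, which put mutant replicate 3 inside the wild-type range. With the actin difference as a covariate 4 of the 7 genes were higher, among them pola-1 at 2.40 (adjusted p = 0.00551). With mutant replicates 1 and 3 left out, so that mutant replicate 2 stood alone against the wild type, pola-1 differed by 2.31 and pri-1 by 1.23. That fit takes its spread from the wild type alone, so it cannot show whether calls hold.

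Polymerase alpha itself was higher in the mutant in both of its measured subunits. For pola-1, the catalytic subunit (probe set 191933_at), the log2 levels, in the order of replicates 1 to 3 here and below, were 6.05, 5.55 and 6.33 for wild type and 8.60, 8.29 and 8.55 for the mutant. The gap between the lowest mutant and the highest wild-type array was 1.96. Its means were 5.98 ± 0.39 and 8.48 ± 0.16 (SD, n = 3). This rise of 2.50 log2 units (limma: standard error, SE, 0.22, adjusted p = 0.00122) is 5.66-fold, with a 95% interval of 3.93 to 8.16. For div-1, the regulatory B subunit, whose loss is known to slow the divisions of the early worm embryo (probe set 193374_s_at), the levels were 6.25, 6.17 and 6.43 in the wild type and 8.38, 8.22 and 8.09 in the mutant. Replicates of div-1 lay close together, and its groups were 1.65 apart at their nearest. Means were 6.28 ± 0.14 and 8.23 ± 0.15 (SD, n = 3), a rise of 1.94 log2 units (limma: SE 0.16, adjusted p = 0.00079) or 3.85-fold (95% interval 2.99 to 4.96).

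Of the primase subunits, pri-2 passed the threshold and pri-1 did not. For pri-1, the catalytic subunit that makes the RNA primer (probe set 192957_s_at), the log2 levels were 6.28, 6.22 and 6.10 in the wild type and 6.95, 7.43 and 6.51 in the mutant. The groups did not overlap, but the mutant arrays spread over a wider range than the wild-type arrays and came within 0.23 of them. The difference of 0.76 (SE 0.24, 95% interval 0.20 to 1.32) had a limma adjusted p of 0.0874. It passed the threshold without mutant replicate 3, the lowest mutant array, at 0.99 (adjusted p = 0.0415), and with array weights at 0.84 (0.0352). When mutant replicate 2, the highest mutant array, stood alone against the wild type, the difference was 1.23. That fit takes its spread from the wild type (SD 0.09) and leaves out the wider spread of the mutant (SD 0.46), so it cannot decide the call. Over all alternatives the adjusted p ran from 0.0352 to 0.195. For pri-2, the large primase subunit that holds the primer for hand-over to polymerase alpha (probe set 193059_s_at), the levels were 7.63, 7.16 and 7.25 in the wild type and 8.74, 9.43 and 9.26 in the mutant. All mutant arrays stood at least 1.11 above all wild-type arrays. Means were 7.35 ± 0.25 and 9.14 ± 0.36 (SD, n = 3), a rise of 1.80 log2 units (limma: SE 0.23, adjusted p = 0.00443) or 3.48-fold (95% interval 2.40 to 5.05).

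The call of pri-2 belonged to 1 of its 3 probe sets. The other 2 were dim. Probe set 173191_at read 4.34, 4.32 and 4.34 in the wild type and 4.27, 5.10 and 5.04 in the mutant, a difference of 0.47 (SE 0.24, limma adjusted p = 0.267). Probe set 173081_s_at read 3.42, 3.15 and 3.37 in the wild type and 3.32, 4.57 and 3.63 in the mutant, a difference of 0.53 (SE 0.31, adjusted p = 0.359). On both of these, mutant replicates 2 and 3 lay above the wild-type range, while mutant replicate 1 lay inside it on 173081_s_at and below it on 173191_at. They sat at the 30.7th and 8.43th percentiles of mean brightness over all probe sets, against 76.5 for the probe set that was called, and no detection calls were used to say whether such dim readings exceed background. The mean of the 3 probe sets gave 0.93 (adjusted p = 0.0439). The brightest probe sets of div-1, pri-1, pri-2 and pole-1 carry the array maker's mark for possible matches to several transcripts, and whether they read other genes was not tested. With marked probe sets left out, 4 of the 7 genes were measured and 1 of them, pola-1, was called, while div-1, pri-1 and pole-1 had no probe set left.

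**Figure D1:**
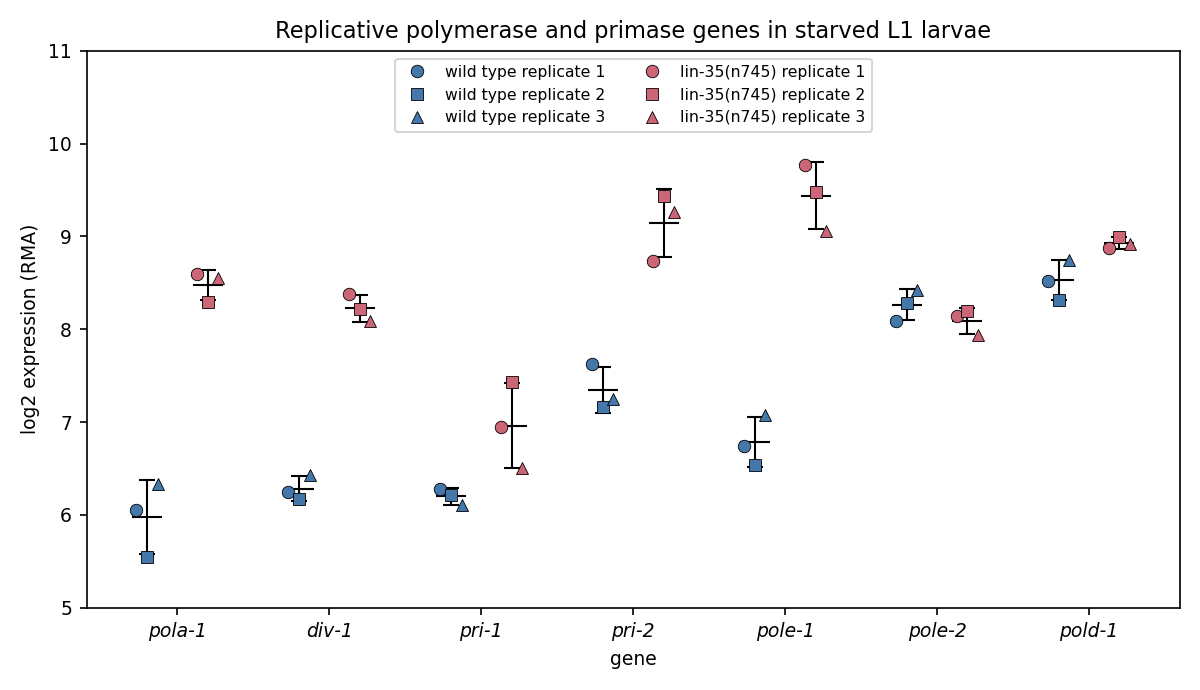
Log2 level from RMA, the array summary used by the submitters (vertical axis), of the 7 genes (horizontal axis) on each of the 6 arrays, with blue symbols for wild type, red for lin-35(n745), and a symbol shape per replicate number. Horizontal bars are means and whiskers are SD (n = 3); the mutant arrays of pola-1, div-1, pri-2 and pole-1 stand clear of the wild type, those of pri-1 and pold-1 come close to it, and those of pole-2 overlap it.

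Within polymerase epsilon the catalytic gene rose and the gene for its second subunit did not. For pole-1, the catalytic subunit (probe set 192588_s_at), the log2 levels were 6.74, 6.54 and 7.07 in the wild type and 9.77, 9.48 and 9.05 in the mutant. These groups were 1.98 apart at their nearest, the widest gap among the 7 genes. Means were 6.79 ± 0.27 and 9.44 ± 0.36 (SD, n = 3), a rise of 2.65 log2 units (limma: SE 0.23, adjusted p = 0.00115) or 6.28-fold (95% interval 4.30 to 9.17). For pole-2, the B subunit that accompanies the catalytic chain (probe set 187194_at), the levels were 8.09, 8.29 and 8.42 in the wild type and 8.14, 8.20 and 7.94 in the mutant. The groups overlapped. The difference of −0.18 (SE 0.16, limma adjusted p = 0.579) had a 95% interval of −0.55 to 0.20, so that the interval of the fold ran from 0.683 to 1.15. The other pole-2 probe set, 175203_s_at, read 7.14, 7.10 and 7.47 in the wild type and 7.62, 7.15 and 7.35 in the mutant, a difference of 0.14 (SE 0.19, adjusted p = 0.737). Its sign was opposite to that of the brighter probe set, and neither was called.

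The catalytic subunit of polymerase delta did not pass the threshold. For pold-1 (probe set 191063_at) the log2 levels were 8.52, 8.32 and 8.75 in the wild type and 8.87, 8.99 and 8.92 in the mutant. The mutant arrays lay above the wild-type arrays, by 0.12 at the nearest, and spread less, with an SD of 0.06 against 0.22. The difference of 0.40 (SE 0.16, limma adjusted p = 0.168) had a 95% interval of 0.02 to 0.78, or 1.01-fold to 1.72-fold, which lies below the interval of each of the 4 genes that rose. Intervals here are not adjusted for the number of probe sets tested, which is why those of pri-1 and pold-1 exclude 0 while their adjusted p does not pass.

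**Figure D2:**
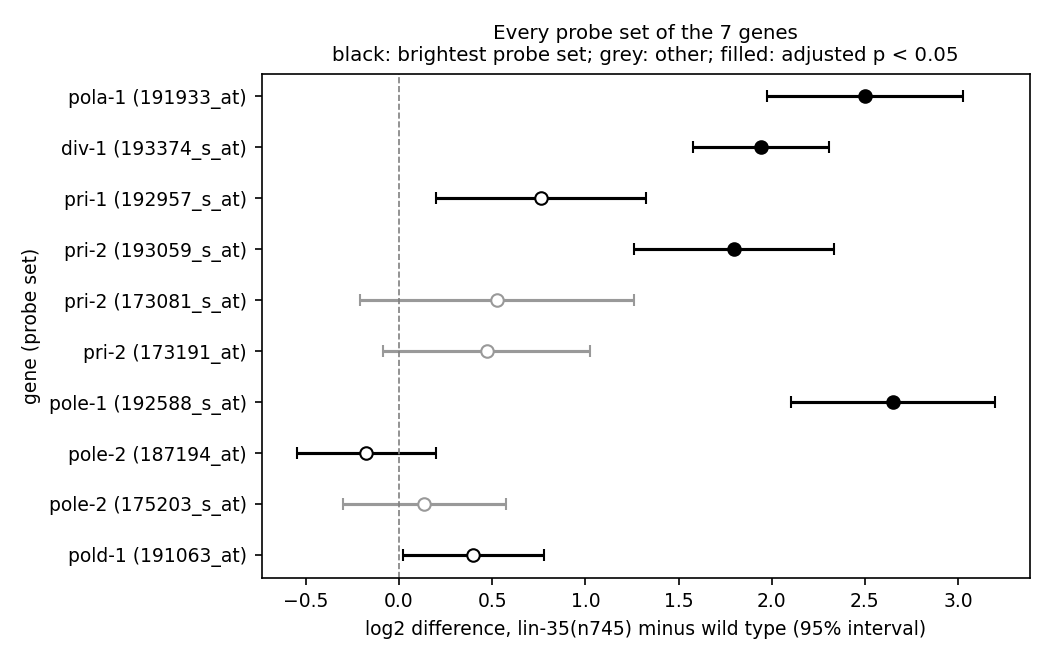
Log2 difference, lin-35(n745) minus wild type (horizontal axis), for each of the 10 probe sets of the 7 genes (vertical axis), with 95% intervals from limma (3 arrays per genotype). Black marks the brightest probe set of a gene, grey the others, and filled points have an adjusted p below 0.05; the dimmer pri-2 probe sets lie at 0.47 and 0.53, left of the 1.80 of the brightest, and both pole-2 probe sets lie near 0.

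On their brightest probe sets, chosen on a mean that includes the mutant arrays, the wild-type means of the 7 genes lay between the 50.5th percentile of all probe sets (pola-1) and the 79.5th (pold-1). The other pri-2 probe sets lay at the 3.60th and 26.3th wild-type percentiles. Among the 17118 genes, 0.689% had a larger log2 difference than pole-1 and 0.789% a larger one than pola-1. For div-1 and pri-2 these shares were 1.57% and 1.87%, for pri-1 8.93% and for pold-1 17.0%, while 65.8% of genes had a larger difference than pole-2.

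The other subunits of these complexes and the other DNA polymerases give the setting. Of 14 such genes listed, 10 were measured, of which 4 rose and 0 fell (0 also at an unadjusted p below 0.05 in limma), with a median log2 difference of 0.73. Among all 17118 genes 5.71% were called higher and 6.12% lower, and 2657 were lower at that unadjusted threshold. In the wild type pold-2, the second subunit of polymerase delta, averaged 7.05 ± 0.18 and in the mutant 8.25 ± 0.50 (SD, n = 3), a difference of 1.20 (SE 0.26, limma adjusted p = 0.0299). Leaving out wild-type replicate 1, 2 or 3 ended this call (adjusted p = 0.105, 0.0649 and 0.0811), as did leaving out mutant replicate 1 (0.0604), and the alternatives spanned 0.00826 to 0.105. The epsilon accessory gene pole-4 rose by 1.05 (SE 0.19, adjusted p = 0.0156). That call ended when wild-type replicate 1 or 3 was left out (0.0705 and 0.0524). When mutant replicate 2 stood alone against the wild type, the difference was 0.79. Over the other alternatives the adjusted p of pole-4 ran from 0.0077 to 0.0705. Its partner pole-3 read 8.49 ± 0.22 in the wild type and 8.49 ± 0.58 in the mutant (SD, n = 3), a difference of 0.00 (SE 0.30, adjusted p = 0.995). Both pold-2 and pole-4 were read from marked probe sets and had no value with such probe sets left out.

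Of the polymerases outside these complexes, the translesion polymerase genes polk-1 and polh-1 rose. The levels of polk-1 were 4.91, 4.78 and 5.16 in the wild type and 8.37, 7.64 and 6.94 in the mutant, a rise of 2.70 log2 units (limma: SE 0.34, adjusted p = 0.00439). Those of polh-1 were 4.37, 4.21 and 4.55 in the wild type and 6.48, 6.92 and 5.81 in the mutant, a difference of 2.03 (SE 0.28, adjusted p = 0.00619). Neither gene's groups overlapped. The probe set of polh-1 is a marked one and that of polk-1 is not, and polh-1 had no value with marked probe sets left out. The end-joining polymerase gene polq-1 differed by 1.20 without passing (adjusted p = 0.0624) and passed in 5 alternatives: without mutant replicate 2 (1.54, adjusted p = 0.0222), with dim probe sets left out (0.0426), with array weights (0.0424), with the replicate block (0.0491) and with trend and robust settings (0.0494). With marked probe sets left out it read −0.02 (adjusted p = 0.96), the highest p of its alternatives. The remaining genes did not pass: rev-1 at 0.40 and rev-3 at 0.18, both of translesion synthesis, the mitochondrial polymerase gene polg-1 at 0.20, and the telomerase gene trt-1 at 0.35, with adjusted p from 0.531 to 0.814.

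**Figure D3:**
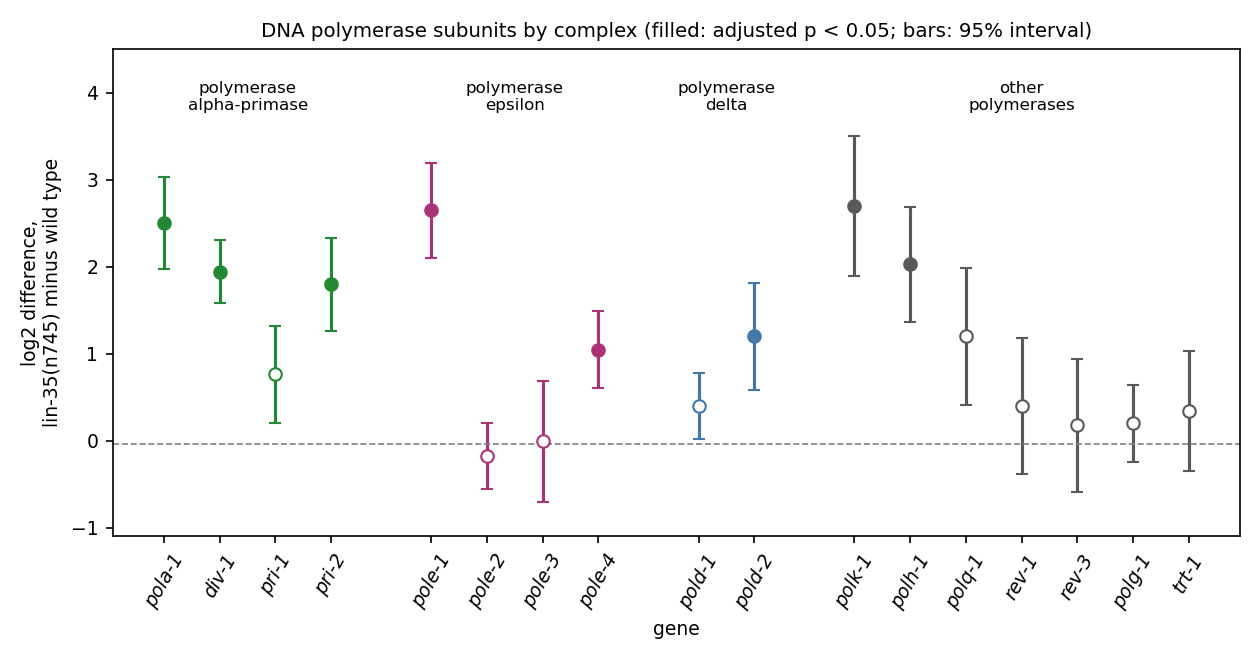
Log2 difference, lin-35(n745) minus wild type (vertical axis), of each measured polymerase gene (horizontal axis), ordered by complex, with 95% intervals from limma and filled points for an adjusted p below 0.05. The dashed line is the median of all genes (−0.04); each of the 3 replicative complexes holds at least 1 gene that rose and at least 1 that did not pass.

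Subunits of one complex were set against each other as the log2 difference between a pair of genes on the same array, over all 13 pairs within the 3 complexes, a comparison added after the values were seen. The pairs share genes, and each gene stood by its brightest probe set. With 3 arrays against 3, an exact two-sided permutation test cannot give a p below 0.1, so no pair could pass, and the smallest adjusted p over the 13 pairs was 0.144. The genotype difference of pole-1 exceeded that of pole-2 by 2.83 and that of pole-3 by 2.66 (log2, exact permutation p = 0.1 for each). That of pola-1 exceeded that of pri-1 by 1.74 (exact permutation p = 0.1). The subunits div-1 and pri-2 differed in it by 0.15 (exact permutation p = 0.8, adjusted 0.8). The genotype difference of pold-1 was smaller than that of pold-2 by 0.80 (exact permutation p = 0.2, adjusted 0.236), with overlapping groups.

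Most of the other replication genes measured were also called higher. Of 42 other genes of replication origins, forks and nucleotide supply listed, 40 were measured, of which 28 (70%) rose and 0 fell, with a median log2 difference of 1.53. Among all genes 5.71% were called higher and 6.12% lower. At an unadjusted p below 0.05 in limma, 33 were higher and 1 lower, against 2025 higher and 2657 lower among all 17118 genes. The 5 of smallest p were dna-2, a helicase-nuclease of primer removal, at 3.77 (SE 0.18, adjusted p = 0.000135), cdt-2, a substrate receptor for destruction of the licensing factor CDT-1, at 2.85, tipn-1, a fork-protection factor, at 2.63, top-2, topoisomerase II, at 2.07, and orc-1, an origin recognition subunit, at 2.37. The clamp gene pcn-1, which tethers polymerases to DNA, differed by 1.11 (SE 0.35, adjusted p = 0.088) and passed only with the actin 3' to 5' covariate among the alternatives (0.0309, range 0.0309 to 0.235). The ribonucleotide reductase gene rnr-1 rose by 1.54 (adjusted p = 0.00584), and differed by 1.76 when mutant replicate 2 stood alone. The lowest of the 40 was the origin gene orc-2 at −0.72 (SE 0.23, adjusted p = 0.0952), named after its value was seen. That value came from a marked probe set: the mean of its probe sets gave −0.34, and without marked probe sets it read 0.05. The values of dna-2, cdt-2, tipn-1, top-2, pcn-1 and rnr-1 also came from marked probe sets. These genes had no value with marked probe sets left out, while orc-1 was read from an unmarked one. When mutant replicate 2 stood alone against the wild type, 16 of the 40 were higher.

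The 7 genes did not share 1 pattern among replicates. Wild-type replicate 2 was the lowest wild-type array for 5 of the 7 genes and the highest for 0, and wild-type replicate 3 was the highest for 5. In the mutant, replicate 3 was the lowest array for 4 genes and the highest for 0. Mutant replicate 2 was the highest for 4, and mutant replicate 1 for 3. Single arrays deviated from the mutant mean in opposite directions for different genes: mutant replicate 1 by 0.34 for pole-1 and −0.41 for pri-2, and mutant replicate 2 by 0.47 for pri-1 and −0.19 for pola-1. The calls of pola-1, div-1, pri-2 and pole-1 held without any 1 of the 6 arrays, with adjusted p up to 0.0244 (pri-2, without mutant replicate 3).

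**Figure D4:**
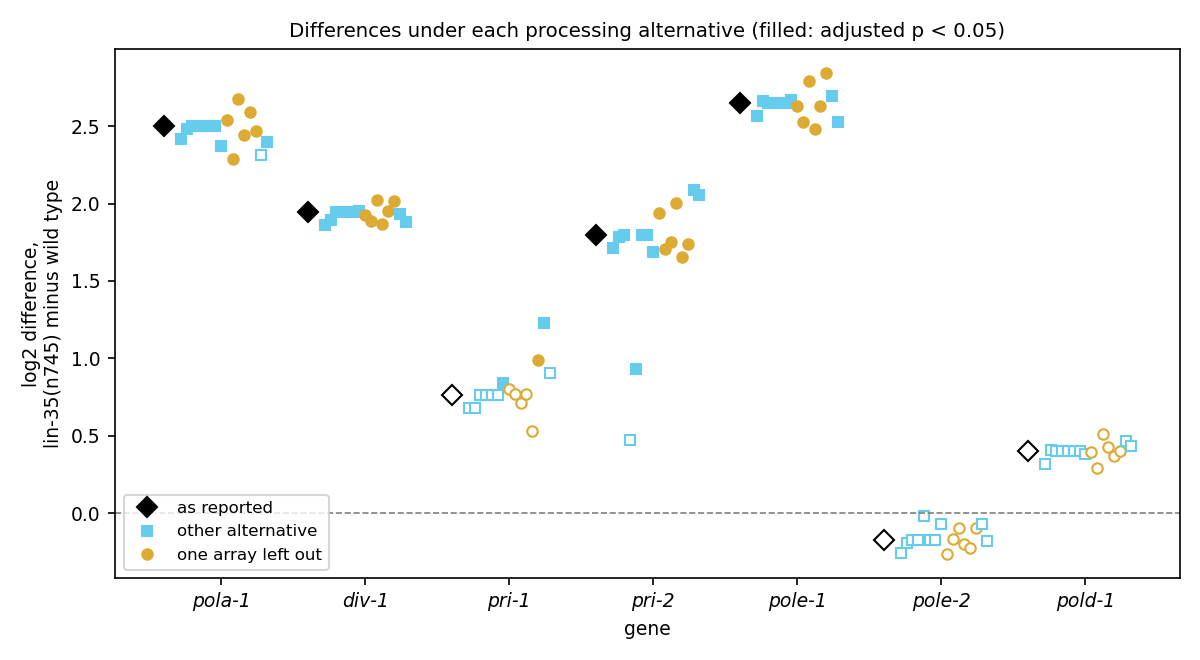
Log2 difference, lin-35(n745) minus wild type (vertical axis), of the 7 genes (horizontal axis) as reported (black diamonds), with 1 array left out (yellow circles) and under the other alternatives (blue squares), filled where the adjusted p is below 0.05. No gene changes sign where it has a value (15 alternatives for div-1, pri-1 and pole-1, 16 for the others). The widest range is that of pri-2, from 0.47 to 2.09. For pri-1, 3 alternatives are filled, including that with mutant replicate 2 alone, whose spread comes from the wild type.

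The 5 genes whose profile over the 6 arrays lay closest to the mean profile of the 7, each profile centred on its own mean, were fasn-1, nhr-102, clec-67, cki-2 and drh-1. Their root mean square distances were 0.05, 0.08, 0.10, 0.10 and 0.10 log2 units over 6 arrays, and their differences ran from 1.27 to 1.55. The values of nhr-102, cki-2 and drh-1 came from marked probe sets, those of fasn-1 and clec-67 from unmarked ones. For drh-1 the mean of its probe sets gave 0.88, and without marked probe sets it read 0.42 (limma adjusted p = 0.272). The 7 genes themselves lay farther from their own mean profile, from 0.28 (div-1) to 0.80 (pole-2). The other 5 were picked out of all genes for closeness to it, so their short distances follow from that choice. The fatty acid synthase gene fasn-1, at the head of that list, read 9.52, 9.26 and 9.64 in the wild type and 10.97, 10.93 and 10.84 in the mutant.

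Markers of larval tissues and of other cells were read beside these genes. Among all 17118 genes, 5.71% were called higher and 6.12% lower. At an unadjusted p below 0.05 in limma, 2025 of them were higher and 2657 lower. All 5 muscle, 5 epidermis, 5 intestine and 5 neuron markers were measured, and 0, 0, 2 (act-5, elt-2) and 0 of them rose, with 0 lower in each. The log2 of the summed intestine level was 12.63 to 12.92 in the wild type and 12.85 to 13.02 in the mutant, and its part in the results was not tested. Unadjusted, 3 intestine markers were higher and 1 neuron marker lower, and the other counts were 0. Of the 5 muscle genes, unc-54, myo-3, unc-15 and tnt-3 were lowest among all arrays on wild-type replicate 2, where unc-54 read 9.21 against 11.63 and 12.60 on the other wild-type arrays, while mlc-3 was highest there at 12.49. Without that array 4 of the 7 polymerase and primase genes were still called higher. Of 10 germline markers 5 rose (glh-1, pgl-1, pgl-3, mes-4 and him-3) and 0 fell (0 unadjusted). The other 5, glh-2, glh-4, gld-1, deps-1 and nos-2, differed by −0.38 to 0.34 and did not pass. The log2 of the summed level of all 10 was 8.90 to 9.35 in the wild type and 11.53 to 11.77 in the mutant. Their part in the results was not tested. Of 10 embryo markers 1 rose (elt-1) and 1 fell (med-1), with sums of 8.44 to 9.17 and 8.58 to 9.07. Of 12 oocyte and eggshell markers 1 rose (egg-2) and 0 fell (2 and 1 unadjusted), with sums of 9.51 to 9.95 and 10.02 to 10.20, and their part in the results was not tested. The brightest of the 12, spn-4, differed by 0.98 without passing (adjusted p = 0.107), while the median difference of the 12 was −0.16 and 5 of them lay above 0. Of 11 sperm markers 0 passed (0 higher and 2 lower unadjusted), with sums of 8.42 to 8.83 and 8.25 to 8.64. The calls of elt-2, med-1, elt-1 and egg-2 were each lost without at least 1 array: leaving out wild-type replicate 1 gave adjusted p values of 0.0733, 0.0733, 0.118 and 0.147.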

How the data were processed

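The deposited table holds a log2 value for each probe set on each array, made with RMA per the submitters' processing notes. RMA removes background, equalises the distributions of arrays by quantiles and combines probes; its version is not given in the sources. RMA lifts dim readings to a floor and would hide a shift of all transcripts. Per the labels' protocols, each array took cRNA from 6 µg of total RNA.

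Of 22625 probe sets, 77 controls were left out and 22548 tested without further normalization or filter. Genes were named from the platform annotation where a probe set had 1 symbol (20766; 887 had several and 895 none), and symbols matched through Entrez identifiers to a WBcel235 table changed in 0 cases. The comparison of genotypes used lmFit and eBayes of limma 3.58.1 (two-sided, 4 residual and 3.24 prior degrees of freedom) in R 4.3.3. The fit was tested on simulated data.

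The members, lists and alternatives were chosen with earlier results of these data known. Named genes were the 7 members, lin-35, all measured genes of the other-polymerase list, from the replication list the 5 called of smallest p, pcn-1, rnr-1 and any called lower, and the 5 nearest profiles; marker genes are named where called. Subunit pairs were compared with exact two-sided permutation tests over arrays. No protein or promoter sequence is given, and motifs were not searched.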

Additional observations from a re-analysis of the deposited data

How the results depend on the processing

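The direction of the 7 polymerase and primase genes held in each alternative that gave a value, 15 for div-1, pri-1 and pole-1 and 16 for the others. Of the 7, 4 were called higher in the reported fit and 4 to 5 without any 1 array, with 0 lower throughout. Excluding probe sets marked as matching several transcripts left no probe set for div-1, pri-1 and pole-1, so that 4 of the 7 were measured and 1 called (pola-1). A dimmer probe set then stood for pri-2, at 0.47 (adjusted p = 0.276). That setting also gave 13 of 21 other replication genes, 1 of 7 other polymerase genes and 753 probe sets higher. Without 1 array, 21 to 26 other replication genes were higher and 0 to 1 lower, 2 to 5 other polymerase genes were higher (2 without wild-type replicate 1 or 3), and 649 to 1173 probe sets were higher and 353 to 1235 lower, against 1282 and 1260 reported. The fewest came without wild-type replicate 1 (649 and 353), followed by wild-type replicate 2 (853 and 518). Those lower numbered 783 when the third wild-type array was left out and 582 when the third mutant array was. With mutant replicates 1 and 3 left out, so that the lone mutant array borrows its spread from the wild type, 16 other replication genes, 583 probe sets higher and 185 lower were called. Centring arrays on their medians gave 1277 probe sets higher and 2117 lower, so that 37.6% of calls were higher against 50.4%, and 1 other replication gene lower, orc-2 (−0.80, adjusted p = 0.0487), which was also the 1 called lower with array weights (−0.78, 0.0417). Without mutant replicate 2 the 1 called lower was rnr-2, a ribonucleotide reductase gene (−0.74, 0.0491), named after its value was seen. The cause of these shifts was not tested. With the replicate number as a block 4 of the 7 genes, 29 other replication genes and 1514 probe sets were higher, and no call among the 7 changed. Deviations of same-numbered arrays from their genotype means correlated by 0.05 to 0.08, and 0 of 6 arrays correlated best with the array of its own number. With 3 arrays per genotype this cannot exclude that same-numbered arrays were handled together, and the labels do not say. Signs turned for uncalled genes alone: lin-35 (−0.023 centred, −0.0024 with repeated quantile normalization, −0.0035 with array weights, −0.032 with the actin covariate, −0.065 to 0.18 without 1 array), pole-3 (0.31 with the lone mutant array, −0.18 to 0.33 without 1 array), polg-1 (−0.0022 with the lone mutant array), polq-1 (−0.022) and orc-2 (0.047) without the marked probe sets, and rev-3 (−0.090 with the lone mutant array, −0.15 with the actin covariate, −0.14 to 0.40 without 1 array).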

Other observations

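The genes that neighbour the 7 on the chromosome, 1 on each side among protein-coding genes, were read after the other results were known. Of these 14 neighbours 13 were measured, of which 1 rose and 1 fell. Among all genes measured, 5.71% were called higher and 6.12% lower, so these counts do not set the neighbours apart. The kup-1 gene beside pold-1 averaged 7.77 ± 0.26 in the wild type and 9.33 ± 0.38 in the mutant (SD, n = 3). It rose by 1.55 log2 units (limma: SE 0.24, adjusted p = 0.00872), against 0.40 for pold-1 itself. The value of kup-1 came from a marked probe set, and that of pold-1 from an unmarked one. F58A4.6 beside pri-1 fell from 8.62 ± 0.23 to 7.48 ± 0.23 (SD, n = 3), a difference of −1.14 (SE 0.19, adjusted p = 0.0119), against 0.76 for pri-1. The DNA-end-binding gene cku-70 beside pola-1 differed by 1.15 without passing (SE 0.32, adjusted p = 0.0621), and snrp-3 beside pole-2 by 0.02 (adjusted p = 0.965).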
